A study of Homo sapiens with 36 samples.

Results

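EHF, ELF3 and ELF5 are epithelial members of the ETS family of transcription factors. Their RNA was followed here through 9 treatment groups, vehicle among them, of ZR-75-1, an established estrogen-responsive line of human luminal breast cancer cells. The members were taken as every array probe that the platform annotation assigns to 1 of these 3 symbols, which gave 4 probes. EHF and ELF3 have 1 probe each and ELF5 has 2. Of the 4 probes, 3 were above background often enough to be tested, 1 for each gene, so that all 3 members stood among the 12195 genes tested.

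The 36 samples form 9 groups of 4. Cells were given E2 with DHT, E2 with MPA, E2 with PROG, a treatment the labels write as E2s+PROG, E2 alone, DHT alone, MPA alone, PROG alone, or ethanol vehicle (Vehicle). E2 is estradiol, the main estrogen, DHT is dihydrotestosterone, a potent androgen, MPA is medroxyprogesterone acetate, a synthetic progestin that also binds the androgen receptor, and PROG is progesterone. All groups were the same cell line, kept for 48 h in phenol red-free medium with 10% hormone-stripped serum and then treated for 16 h. E2 and DHT were each used at 10 nM, both singly and combined. Doses are not stated for MPA, for PROG or for the E2 that went with them. The sample titles spell out E2s+PROG and E2+PROG alike, as estradiol with progesterone, and do not say what the s stands for. Nothing in the labels says that the 4 samples of a group were separate cultures, so the p-values reflect how far these samples spread, and that spread may be technical.

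ETS factors bind DNA through a conserved domain that recognises a GGAA core. ELF3 and EHF are expressed mainly in secretory and barrier epithelia, where they control genes of epithelial differentiation, and ELF5 directs the formation of milk-secreting alveolar cells in the mammary gland downstream of prolactin and progesterone. In luminal breast cancer cells ELF5 is known to oppose the estrogen-dependent programme, and ELF3 is best known there for its tie to ERBB2 signalling.

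The promoters of the genes that passed a test below are shown to give the sequence around their starts, each from 250 bases before to 50 bases after the start, 5′ to 3′ on the gene's strand, from RefSeq on GRCh38.p14. EHF is on the plus strand of chromosome 11 with starts in chr11:34624007-34624306 and chr11:34632316-34632615, and ELF3 is on the plus strand of chromosome 1 at chr1:202010337-202010636. Capitals mark the GGAA core of ETS sites and GGTCA, the arm that is repeated in the estrogen response element, on either strand.
EHF, first start: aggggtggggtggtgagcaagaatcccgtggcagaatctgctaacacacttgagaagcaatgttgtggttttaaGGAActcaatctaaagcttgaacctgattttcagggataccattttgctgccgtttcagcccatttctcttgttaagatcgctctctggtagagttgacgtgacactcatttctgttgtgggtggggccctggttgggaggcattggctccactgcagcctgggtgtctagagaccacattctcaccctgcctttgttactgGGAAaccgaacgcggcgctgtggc
EHF, second start: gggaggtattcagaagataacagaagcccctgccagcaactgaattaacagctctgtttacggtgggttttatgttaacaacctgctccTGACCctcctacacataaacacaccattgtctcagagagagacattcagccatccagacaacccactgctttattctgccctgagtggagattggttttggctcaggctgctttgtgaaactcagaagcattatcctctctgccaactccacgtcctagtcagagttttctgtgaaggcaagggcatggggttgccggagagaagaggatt
ELF3: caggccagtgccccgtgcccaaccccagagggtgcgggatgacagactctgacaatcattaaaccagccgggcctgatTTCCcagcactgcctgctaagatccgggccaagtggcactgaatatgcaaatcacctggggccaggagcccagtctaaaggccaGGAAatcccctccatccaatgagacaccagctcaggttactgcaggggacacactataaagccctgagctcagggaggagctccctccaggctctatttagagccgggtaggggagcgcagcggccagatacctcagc
The full estrogen response element, searched as GGTCA followed by its reverse complement with 3 bases between, was in neither EHF promoter, nor in that of ELF3 or ELF5, against 0.057% of 35116 promoters of this length. The full androgen and progesterone response element, searched as AGAACA followed by its reverse complement with 3 bases between, was also in none of the 4, against 0.00285% of promoters. AGAACA alone was in none of the 4 either, against 14.8% of promoters. GGTCA alone, which is contained in the full estrogen element, occurred 1 time at the second EHF start and 1 time in the ELF5 promoter, and 37.4% of promoters held it. The first EHF promoter and the ELF3 promoter held GGAA 2 times each and the ELF5 promoter 4 times, while the second EHF promoter held none, against 95.5% of promoters with at least 1. The search covered both strands, and a match is only a match of letters in this window.

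Levels are normalized log2 signals. Between 33.2% and 37.9% of probes were above background per array, and the lowest signal above background lay between 5.86 and 6.21. A probe's level cannot be set against another probe's, so each gene is read only against itself across groups. Luminal markers were present, and 8 of 8 luminal markers (ESR1, GATA3, FOXA1, KRT8, KRT18, KRT19, EPCAM and CDH1) were above background on all 36 arrays. Of the markers of other cells, KRT5 and KRT14 of basal cells, COL1A2, COL3A1, POSTN and PDGFRB of stroma, and PTPRC, CD3E, CD3D and CSF1R of leukocytes were above background on none. ACTA2, OXTR and EGFR (3 of 6 basal markers on the array), COL1A1 (1 of 7 stromal) and CD14 and CD68 (2 of 7 leukocyte) were above background on all 36, and their part in the results was not tested. In bulk RNA, fewer cells of a type and less RNA per cell cannot be told apart. The spread between replicates ran mostly along 1 direction, which held 49.4% of the residual variance. The 12 arrays that stand side by side as columns 13 to 24 in the authors' table, called the run here, and Vehicle replicate 1 scored low on it, at -49.2 to -6.16 and at -53.8, while the others scored from -7.98 to 48.1. The run held arrays of 7 groups and none of MPA or PROG.

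EHF was above background on all 36 arrays, and its group means spanned 1.81 log2 units, wider than 97.7% of the genes tested. DHT gave the highest mean, 11.43 ± 0.27, followed by E2+MPA at 11.41 ± 0.58, E2+DHT at 11.09 ± 0.48 and MPA at 10.92 ± 0.31. Next came Vehicle at 10.88 ± 0.60, above E2+PROG at 10.77 ± 0.24, PROG at 10.57 ± 0.25, E2s+PROG at 10.02 ± 0.09 and E2 at 9.63 ± 0.49 (SD, n = 4 each). No neighbours in this order differed by more than the 95% margin of a difference, 0.56. DHT replicates 1, 2 and 4 are arrays of the run. ELF3 spanned 0.68 log2 units, wider than 70.8% of genes, and ELF5 0.50. ELF3 was lowest in E2, at 12.73 ± 0.14, then E2+DHT at 12.78 ± 0.20, E2s+PROG at 12.91 ± 0.15, E2+PROG at 13.12 ± 0.23 and E2+MPA at 13.16 ± 0.40. The single steroids MPA at 13.26 ± 0.07, DHT at 13.27 ± 0.12 and PROG at 13.28 ± 0.07 stood between these and Vehicle, the highest, at 13.41 ± 0.19 (SD, n = 4 each). No neighbouring ELF3 means differed beyond their margin of 0.30. E2 alone had the lowest mean for all 3 genes. For ELF5, however, only 2 of 4 E2 arrays were above background. Its E2 mean lay 0.11 below the next group, within the margin of 0.46.

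**Figure D1:**
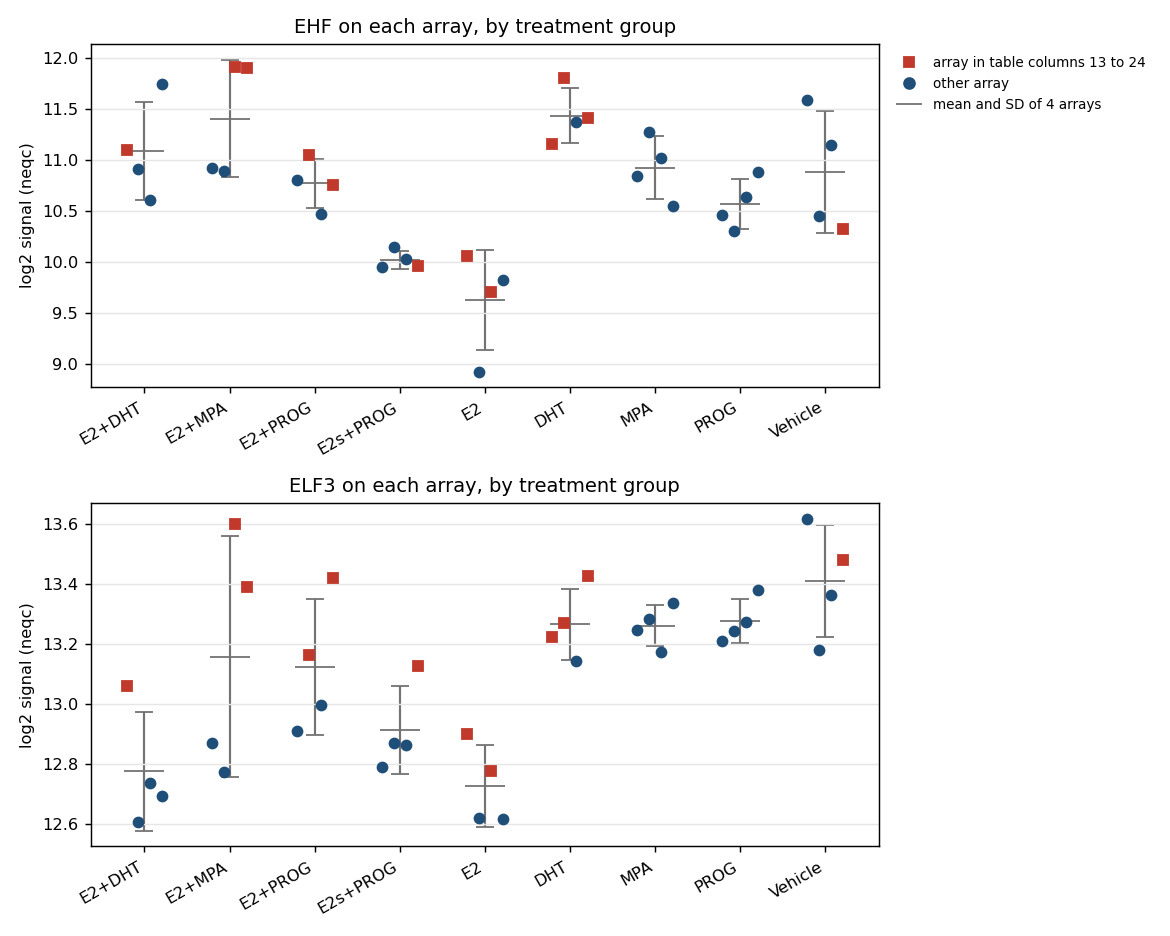
Normalized log2 signal of EHF (top) and ELF3 (bottom) on each of the 36 arrays, by treatment group, with the mean and SD of 4 arrays; red squares are arrays of the run of columns 13 to 24. The E2 arrays lie at 8.92 to 10.05 for EHF, overlapping E2s+PROG, and below every Vehicle array for both genes, and in E2+MPA both arrays of the run lie above both others.

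The first question was what each steroid did alone. E2 lowered both EHF and ELF3. EHF was at 10.05, 8.92, 9.70 and 9.82 in the E2 arrays, against 11.59, 10.45, 11.15 and 10.32 in the Vehicle arrays. Every E2 array was below every Vehicle array, with replicate 2 the lowest of all 36. EHF fell by 1.25 on the log2 scale, 2.38-fold (95% CI -1.81 to -0.69, limma, adjusted p = 0.00666, exact two-sided permutation p = 0.0286, the smallest that 4 against 4 arrays can give). ELF3 was at 12.90, 12.62, 12.78 and 12.62 in the E2 arrays, against 13.62, 13.18, 13.36 and 13.48 in the Vehicle arrays. Again the groups did not overlap, and ELF3 fell by 0.68 or 1.60-fold (95% CI -0.98 to -0.38, limma, adjusted p = 0.00548). Thus 2 of 3 members passed, in a comparison where 1.86% of all genes did. Only 1.05% of genes differed more than EHF in size and 7.77% more than ELF3.

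The fall of EHF passed in 6 of the 8 fits that left out 1 array of these groups. It did not pass without E2 replicate 2, at -1.02 (adjusted p = 0.0706), or without Vehicle replicate 1, at -1.01 (adjusted p = 0.0658). Outside the run EHF was at -1.69 (adjusted p = 0.00546) and ELF3 at -0.77 (adjusted p = 0.00171). There the E2 arrays are replicates 2 and 4 alone, and the Vehicle arrays include replicate 1. Within the run EHF and ELF3 were at -0.44 and -0.64, values that rest on a single Vehicle array and weigh neither way. ELF3's deviations from its group means correlated with the direction of spread described above at r = -0.82 over 36 arrays and those of EHF at -0.47, against a median of -0.30 over genes, and the part of that direction in these falls was not tested. With the run as a block, the difference was -1.30 for EHF (adjusted p = 0.00246) and -0.76 for ELF3 (adjusted p = 1.38e-05). When Vehicle replicate 1 was left out of that block fit, a choice made after seeing the data, EHF was at -1.06 (adjusted p = 0.0188).

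DHT, MPA and PROG alone called no member. EHF was at 11.15, 11.80, 11.37 and 11.41 with DHT, which overlapped Vehicle because of Vehicle replicate 1. The difference was 0.56 (95% CI -0.000987 to 1.11, adjusted p = 0.367), where 2.4% of genes passed. EHF was at 10.84, 11.28, 11.02 and 10.55 with MPA, a difference from Vehicle of 0.04 (95% CI -0.51 to 0.60), where 1.88% of genes passed. With PROG it was at 10.46, 10.31, 10.63 and 10.88, a difference of -0.31 (95% CI -0.87 to 0.25), where 0.0574% passed. The medians of all genes stood at -0.10 for MPA and -0.11 for PROG in these comparisons, so the MPA and PROG differences are read relative to that shift.

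ELF3 stayed within 0.02 between these 3 group means. It was at 13.23, 13.27, 13.14 and 13.43 with DHT, at 13.25, 13.28, 13.17 and 13.34 with MPA, and at 13.21, 13.24, 13.28 and 13.38 with PROG. All 3 groups overlapped Vehicle, with differences of -0.14 for DHT (95% CI -0.44 to 0.15), -0.15 for MPA (95% CI -0.45 to 0.15) and -0.13 for PROG (95% CI -0.43 to 0.17). The intervals leave out a fall as large as the 0.68 of E2, but they overlap the interval of E2 itself, -0.98 to -0.38. A difference between E2 and these steroids given alone was not tested.

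The second question was what a further steroid did in cells given E2. EHF was higher in E2+DHT, E2+MPA and E2+PROG than in E2. These comparisons share the same 4 E2 arrays with each other and with E2 against Vehicle. The labels give no E2 dose for the combinations with MPA or PROG, so an effect of the added steroid and one of another E2 dose cannot be told apart there. EHF was at 11.10, 10.91, 10.60 and 11.74 with E2+DHT, against the E2 arrays' 8.92 to 10.05. The groups did not overlap, and the rise was 1.46 or 2.76-fold (95% CI 0.90 to 2.02, limma, adjusted p = 0.00168), where 1.08% of genes passed. With E2+MPA, EHF was at 10.92, 10.89, 11.91 and 11.90. The rise over E2 was 1.78 or 3.43-fold (95% CI 1.22 to 2.34, limma, adjusted p = 6.86e-05), where 2.14% of genes passed. Only 0.123% of genes differed more between these groups. With E2+PROG, EHF was at 10.80, 11.05, 10.47 and 10.75, again above every E2 array. The rise was 1.14 or 2.21-fold (95% CI 0.59 to 1.70, limma, adjusted p = 0.0136), where 2.51% of genes passed. In each of the 3 comparisons EHF was the 1 member of 3 that passed.

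The 2 highest E2+MPA arrays for EHF, replicates 3 and 4, are those of the run, and outside it the rise was 1.53 (adjusted p = 0.0573). The rise of EHF in E2+PROG against E2 was 0.91 (adjusted p = 0.113) without E2 replicate 2 and 1.05 (adjusted p = 0.0674) without E2+PROG replicate 2.

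With E2s+PROG, whose titles name the same steroids as those of E2+PROG, EHF did not pass against E2. It was at 9.95, 10.15, 10.02 and 9.96, the smallest SD of the 9 groups, and overlapped the E2 arrays. The difference from E2 was 0.39 (95% CI -0.16 to 0.95, adjusted p = 1.00), in a comparison where 0.0902% of genes passed. It lay below all 4 E2+PROG arrays, by -0.75 (95% CI -1.31 to -0.19), but this did not pass (adjusted p = 0.291), in a comparison where 1.74% of genes passed.

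ELF3 passed in none of these 4 comparisons. It was at 13.06, 12.61, 12.74 and 12.69 with E2+DHT, overlapping the E2 arrays' 12.62 to 12.90, with a difference of 0.05 (95% CI -0.25 to 0.35). With E2+MPA it was at 12.87, 12.77, 13.60 and 13.39, where both high values are arrays of the run, and the difference from E2 was 0.43 (95% CI 0.13 to 0.73, adjusted p = 0.123). Outside the run that difference was 0.20 and within it 0.66, and with the run as a block ELF3 passed in E2+MPA against E2 (adjusted p = 0.0169). With E2+PROG it was at 12.91, 13.16, 12.997 and 13.42, each above every E2 array, yet the difference of 0.40 did not pass (95% CI 0.10 to 0.69, adjusted p = 0.236). With the run as a block, ELF3 in E2+PROG against E2 did pass (adjusted p = 0.0304). With E2s+PROG it was at 12.79, 12.87, 12.86 and 13.13, a difference from E2 of 0.19 (95% CI -0.11 to 0.48).

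**Figure D2:**
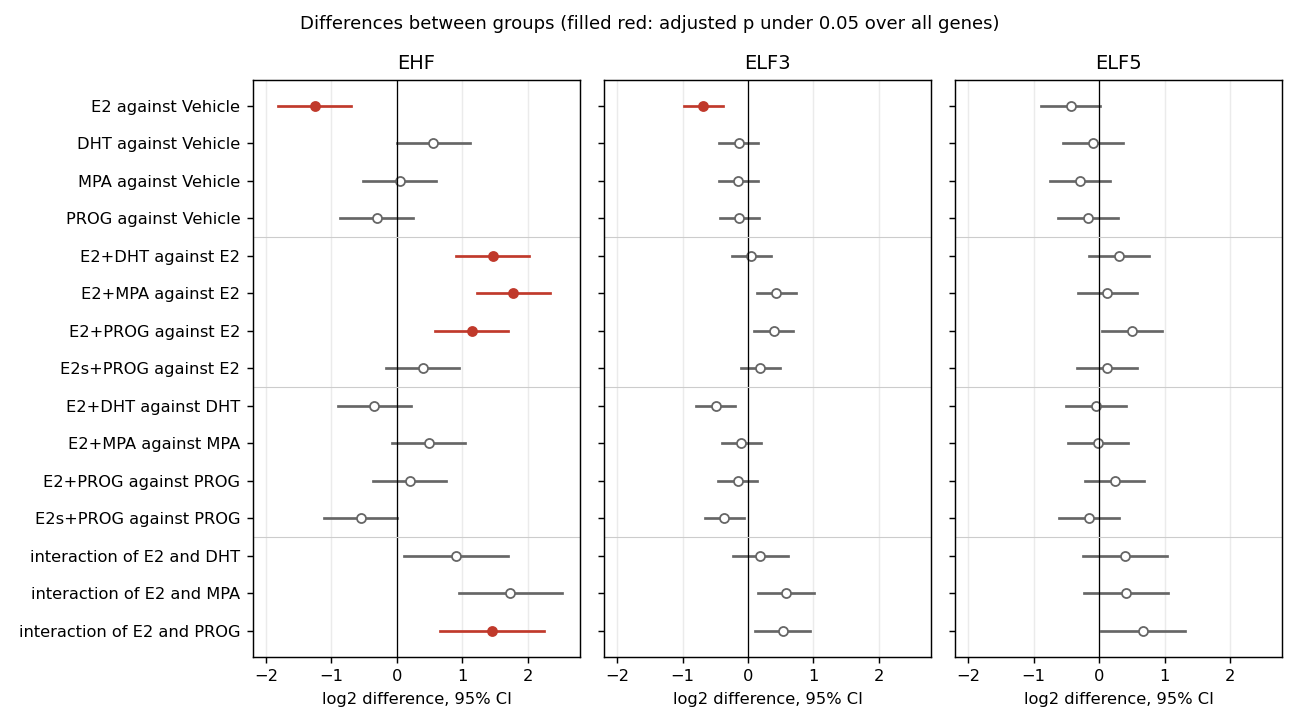
Log2 differences with 95% confidence intervals for EHF, ELF3 and ELF5 in 15 comparisons, with Benjamini-Hochberg adjustment over 12195 genes; filled red points passed. EHF passed in E2 against Vehicle at -1.25, in 3 combinations against E2 at 1.14 to 1.78 and in the interaction of E2 and PROG at 1.45, ELF3 in E2 against Vehicle at -0.68, and ELF5 in none.

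Against Vehicle, in comparisons added after the data were seen and sharing the Vehicle arrays, EHF and ELF3 gave different counts. EHF did not pass in any of them, at 0.21 with E2+DHT (95% CI -0.35 to 0.77), 0.53 with E2+MPA (95% CI -0.03 to 1.09), -0.11 with E2+PROG (95% CI -0.67 to 0.45) and -0.86 with E2s+PROG (95% CI -1.42 to -0.30, adjusted p = 0.118). ELF3 passed in E2+DHT, where it fell by 0.63 or 1.55-fold (95% CI -0.93 to -0.34, limma, adjusted p = 0.00611) with no overlap between groups, in a comparison where 4.66% of genes passed. It was at -0.25 with E2+MPA (3.82% of genes passed), -0.29 with E2+PROG (5.8%) and -0.50 with E2s+PROG (adjusted p = 0.0788, 2.03%). Of the 2 factors, ELF3 alone passed in E2+DHT against Vehicle, and a difference between the genes was not tested.

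The effect of E2 was also read in cells that had another steroid. Added to DHT, E2 gave EHF a difference of -0.35 (95% CI -0.90 to 0.21, 1.33% of genes passed), added to MPA 0.48 (95% CI -0.07 to 1.04, 1.35%) and added to PROG 0.20 (95% CI -0.36 to 0.76, 4.81%). For E2s+PROG against PROG it was -0.55 (95% CI -1.11 to 0.0085, 1.31%), with no overlap between the groups. None of the 4 passed. The interaction, which is the E2 difference with the other steroid minus that without it, was 0.91 with DHT (95% CI 0.12 to 1.69, adjusted p = 0.909), 1.74 with MPA (95% CI 0.95 to 2.52, adjusted p = 0.0694) and 1.45 with PROG (95% CI 0.66 to 2.24, adjusted p = 0.0466). Of all genes 0.0082%, 0.0656% and 1.54% passed in them, in the same order. The PROG interaction passed in 10 of 31 alternatives and the MPA interaction in 6 of 31. The larger MPA value did not pass while the smaller PROG value did, since the adjustment depends on how many genes pass in each. The E2 dose given with MPA or PROG is not stated, so an interaction and an effect of another E2 dose cannot be told apart there.

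For ELF3 every E2+DHT array was under every DHT array, with a difference of -0.49 that did not pass (95% CI -0.79 to -0.19, adjusted p = 0.115). The E2 difference for ELF3 was -0.10 in cells given MPA, -0.15 in cells given PROG and -0.36 for E2s+PROG against PROG, where again the groups did not overlap. Its interactions were 0.19, 0.58 and 0.53 for DHT, MPA and PROG (adjusted p = 0.943, 0.130 and 0.192).

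The steroids were also set against each other in 7 pairs, at doses that the labels give only for E2 and DHT. MPA differs from progesterone by an added methyl and an acetoxy group, and DHT is an androgen with no double bond in its A ring. EHF with DHT was above all 4 PROG arrays, by 0.87 (95% CI 0.31 to 1.42), without passing (adjusted p = 0.135, 1.38% of genes passed). DHT replicates 1, 2 and 4 are arrays of the run, and no PROG array is. That difference was 0.71 with the run as a block (limma, adjusted p = 0.541) and 0.70 with blocks of 12 columns (adjusted p = 0.579). The intervals were -0.04 to 1.07 for DHT against MPA (0.312% of genes passed), -0.21 to 0.91 for MPA against PROG (0.459%) and 0.08 to 1.19 for E2+MPA against E2+PROG (adjusted p = 0.302, 2.43%). For E2+DHT they were -0.88 to 0.24 against E2+MPA (0.525%) and -0.24 to 0.88 against E2+PROG (3.29%). No member passed in any pair in the fit described. Among alternatives, EHF passed in DHT against PROG with array weights (adjusted p = 0.00667), in E2+MPA against E2+PROG within the run (0.0431) and in E2s+PROG against E2+PROG with these groups fitted alone (0.0401), and ELF3 in E2+DHT against E2+PROG with array weights (0.0409). These intervals do not show that the compounds act alike.

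ELF5 lay near background and did not pass in any comparison. Its probe ILMN_1813270 was above background on 32 of 36 arrays, on 2 of 4 in E2, 3 of 4 in E2+MPA and 3 of 4 in E2s+PROG. It was at 6.64, 5.81, 5.73 and 6.01 in the E2 arrays, against 7.0, 6.70, 6.10 and 6.13 in the Vehicle arrays. The groups overlapped through E2 replicate 1. With 2 of the 4 E2 arrays not above background, a difference from E2 is a fitted value taken partly at background and no exact size. The fitted difference from Vehicle was -0.44 (95% CI -0.89 to 0.02, adjusted p = 0.329). With E2+PROG it was highest, at 6.35, 6.48, 6.67 and 6.69, a fitted difference from E2 of 0.50 (95% CI 0.05 to 0.96, adjusted p = 0.446). Its means were 6.35 ± 0.34 in E2+DHT, 6.17 ± 0.38 in E2+MPA, 6.55 ± 0.16 in E2+PROG and 6.16 ± 0.38 in E2s+PROG. They were 6.04 ± 0.41 in E2, 6.39 ± 0.16 in DHT, 6.19 ± 0.22 in MPA, 6.31 ± 0.28 in PROG and 6.48 ± 0.44 in Vehicle (SD, n = 4 each). Across all arrays it ranged from 5.68 to 7.0, and no neighbouring groups in the order of means differed beyond 0.46. The probe ILMN_1684699, annotated to a different ELF5 transcript, was above background on 1 of 36 arrays and lay between 5.10 and 6.00, and has no more than a bound on the other arrays.

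**Figure D3:**
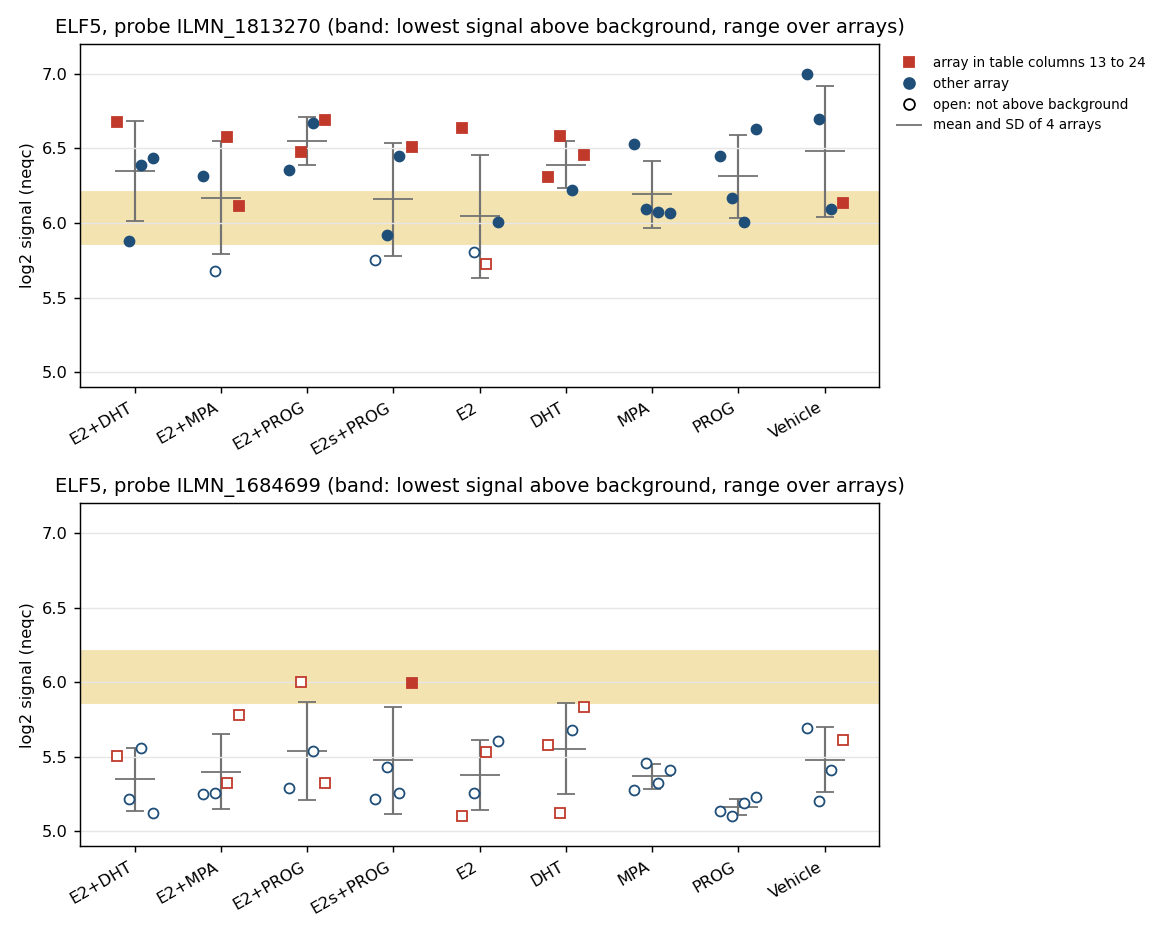
Normalized log2 signal of both ELF5 probes on each of 36 arrays, by group, with the mean and SD of 4 arrays; open symbols were not above background, and the band spans the lowest signal above background, 5.86 to 6.21. The upper probe runs from 5.68 to 7.0 with all groups overlapping, and 1 array of the lower probe is above background.

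ELF5 and EHF are neighbours on chromosome 11, in the order CAT, ELF5, EHF, APIP. CAT, the hydrogen peroxide enzyme catalase, differed by -0.50 in E2 against Vehicle (adjusted p = 0.125) and APIP, an enzyme of methionine salvage, by 0.13 (adjusted p = 0.657). In E2+MPA against E2 they were at 0.19 and -0.01, beside 1.78 for EHF, and neither passed.

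No other ETS gene passed. Of 25 other ETS genes on the array 14 were tested, and 0 of 14 passed in each of the 26 comparisons by limma. At an unadjusted p under 0.05 were 0 to 3 of them, beside 217 to 3107 of all 12195 genes, depending on the comparison. SPDEF, the prostate-derived ETS factor of luminal cells, was above background on all arrays, and its group means spanned 0.39. In E2 against Vehicle the 14 ranged from -0.56 for ETV3, a repressor, to 0.39 for ERG, with a list median of -0.02 beside -0.02 for all genes. In E2+MPA against E2 they ranged from -0.36 for ERG to 0.28 for GABPA, a factor of mitochondrial genes. ETS1, ETV1, ETV7, ETV3L, FLI1, ELK3, SPI1, SPIB and SPIC were above background on 0 of 36 arrays, and ETV4 and FEV on 1.

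**Figure D4:**
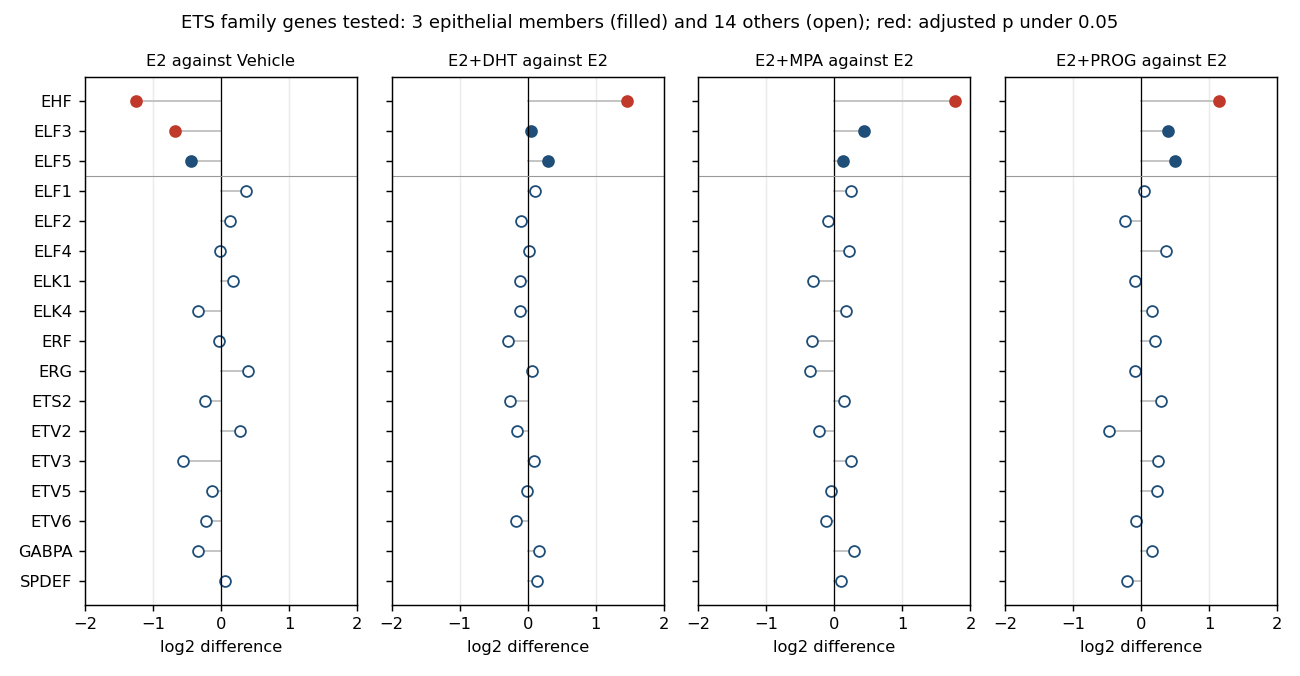
Log2 differences of EHF, ELF3 and ELF5 (filled) and of 14 other ETS genes, SPDEF of luminal cells among them (open). The comparisons are E2 against Vehicle and E2+DHT, E2+MPA and E2+PROG against E2, and red marks an adjusted p under 0.05. The other 14 lie between -0.56 and 0.39 where EHF lies between -1.25 and 1.78.

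Genes tied to epithelial ETS factors in earlier work were counted next, against the percentages of all genes given above. Of 15 listed, 11 were tested. By limma 0 passed in E2 against Vehicle (5 at an unadjusted p under 0.05) and 0 in E2+DHT against E2 (1 at an unadjusted p under 0.05). Of all 12195 genes, 1979 were at an unadjusted p under 0.05 in E2, 1662 in DHT, 3107 in MPA and 2873 in PROG against Vehicle. Against E2 the counts of all genes were 723 in E2+DHT, 1865 in E2+MPA, 1117 in E2+PROG and 217 in E2s+PROG. In E2+MPA against E2, 1 was lower: LCN2, the siderophore carrier lipocalin, at least 1.36-fold (adjusted p = 0.0214), above background on 0 of 4 E2+MPA arrays and 4 of 4 E2 arrays. In E2+PROG against E2, 1 was higher: SERPINB5, the epithelial serpin maspin, at least 2.20-fold (adjusted p = 3.13e-05), above background on 4 of 4 E2+PROG arrays and 0 of 4 E2 arrays. The list medians were 0.07 and 0.14 in these 2 comparisons, beside -0.01 and -0.03 for all genes. KRT8, the luminal keratin, and ERBB2, the receptor tyrosine kinase, passed in neither. For DHT, MPA and PROG against Vehicle and for E2s+PROG against E2, 0 of 11 passed by limma, with 1 to 3 at an unadjusted p under 0.05. In E2+PROG against Vehicle 3 were higher and 1 lower, where 5.8% of all genes passed. These were SERPINB5, at least 1.95-fold, LCN2, at least 1.50-fold, and KRT8, by 0.53, and ERBB2, which fell by 0.66. ERBB2 also fell by 0.58 in E2+DHT against Vehicle, and KRT8 was higher by 0.54 in E2+MPA against Vehicle. In E2s+PROG against Vehicle 0 of 11 passed by limma, with 3 at an unadjusted p under 0.05. In E2+PROG against PROG 3 of 11 were higher, where 4.81% of all genes passed.

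The prolactin and alveolar list held 20 genes, of which 13 were tested, and SOCS2, a feedback inhibitor of cytokine receptors, passed most often. SOCS2 was higher with DHT than with Vehicle by 1.67, with MPA by 1.26, with E2+DHT than with E2 by 1.71 and with E2+MPA by 0.89, and it fell by 0.94 in E2+PROG. STAT5A, the transcription factor downstream of prolactin, was higher with MPA than with Vehicle, at least 1.53-fold, and against E2 at least 2.33-fold with E2+MPA and at least 2.53-fold with E2+PROG. SOCS1 was lower with MPA than with Vehicle, at least 1.50-fold. In E2 and PROG against Vehicle and E2s+PROG against E2, 0 of 13 passed by limma, with 0, 4 and 0 at an unadjusted p under 0.05. Against Vehicle, the combinations gave 2 higher and 1 lower with E2+DHT, 3 higher and 1 lower with E2+MPA, 2 higher and 1 lower with E2+PROG and 1 higher with E2s+PROG. JAK2, the kinase of the prolactin receptor, was higher in all 4, at least 2.16-fold, 1.84-fold, 1.77-fold and 1.71-fold in that order.

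Of 26 genes of epithelial identity and junctions 24 were tested. CLDN3, a tight junction claudin, was higher in E2+PROG than in E2, by 0.70, and TJP1, a tight junction scaffold, fell by 0.51 in DHT against Vehicle. By limma 0 of the 24 passed in E2 against Vehicle. At an unadjusted p under 0.05 were 10 of the 24 there, beside 1979 of all 12195 genes. The median of the 24 was -0.28 beside -0.02 for all genes. For MPA and PROG against Vehicle and for E2+DHT, E2+MPA and E2s+PROG against E2, 0 of 24 passed by limma, with 0 to 7 at an unadjusted p under 0.05. Against Vehicle, TJP1 also fell by 0.46 in E2+DHT, by 0.49 in E2+PROG and by 0.51 in E2s+PROG, and KRT8 was higher in E2+MPA and E2+PROG, as given above. Of 11 mesenchymal genes 3 were tested, and 0 passed by limma for the single steroids against Vehicle and the combinations against E2, with 0 or 1 at an unadjusted p under 0.05. TWIST1, a transcription factor of mesenchymal transition, passed against Vehicle in 3 combinations, where it fell by 0.57 in E2+DHT, 0.49 in E2+MPA and 0.52 in E2+PROG. Of 9 luminal hormone-sensing genes 8 were tested, and 3 were higher in E2 than in Vehicle. These were GREB1, an estrogen-induced growth gene, PGR, the progesterone receptor, and TFF1, a secreted trefoil peptide. Against Vehicle 1 of the 8 was higher with DHT and 2 with MPA, and against E2 1 was higher with E2+DHT, while E2+MPA and E2+PROG each had 1 higher and 2 lower. Against Vehicle the combinations gave 4 higher and 1 lower with E2+DHT, 3 higher with E2+MPA, 4 higher and 1 lower with E2+PROG and 4 higher with E2s+PROG. Of the basal, stromal and leukocyte markers 3, 2 and 3 were tested. By limma 0 passed for the single steroids against Vehicle and the combinations against E2, with at most 3, 0 and 1 at an unadjusted p under 0.05. The 3 basal markers reached that level in MPA against Vehicle, where 3107 of all 12195 genes did. ACTA2, a smooth muscle actin and basal marker, fell by 0.47 in E2+DHT against Vehicle (adjusted p = 0.0490), where ELF3 also passed, and its part in that result was not tested.

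Genes whose 9 group means followed those of the members were named by Pearson correlation among 4560 candidates, a description in which the groups share their arrays. TSC22D3, a glucocorticoid-induced leucine zipper, came closest to EHF (r = 0.97), followed by LIMK2, a kinase of the actin cytoskeleton (0.96), HERC3 and CPEB4, a ubiquitin ligase and an RNA-binding protein (0.94 each), and GLUL, glutamine synthetase (0.93). Within groups their deviations correlated with those of EHF at 0.73, 0.79, 0.64, 0.56 and 0.80, over 36 arrays. TSC22D3 averaged 12.95 in E2+MPA, 11.92 in E2 and 12.50 in Vehicle. In E2 against Vehicle none of these genes passed by limma (adjusted p = 0.136 to 0.310). In E2+MPA against E2 all of them passed but GLUL (adjusted p = 0.0515).

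ELF3 was followed most closely by ABCC5, an organic anion exporter (r = 0.95), GRB7, an adaptor beside ERBB2 (0.95), PHEX, a phosphate-regulating peptidase (0.94), FBXO32, an F-box protein of the ubiquitin system (0.93), and CORO2A, an actin-binding protein (0.92). ELF5 was followed by TNS3, a tensin of focal adhesions (0.92), RNF213 (0.87), RBMS1 (0.85), ACADSB (0.84) and STYX (0.84). Within groups the deviations of these genes correlated with those of ELF5 at 0.29, 0.39, 0.56, 0.11 and 0.44. ELF5 lay near background and passed in no comparison, so a match to the order of its means does not show a shared response. The members' own group means correlated at 0.55 for EHF and ELF3, 0.49 for EHF and ELF5 and 0.50 for ELF3 and ELF5, over the 9 groups. Within groups the members' deviations correlated at 0.50, 0.38 and 0.52 in the same order, over 36 arrays.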

How the data were processed

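Per the labels' protocols, each sample's RNA was made into biotinylated cRNA for an Illumina bead array. Per the file headers, the authors deposited linear intensity that had not been normalized, together with a detection p-value for each probe and array. A second deposited intensity table holds processed values, and each of its columns followed the unnormalized one as a line (r = 1, slopes 0.324 to 1.57). The scanning software and its version are not given in the sources used here.

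Background was fitted to the unnormalized intensity with neqc from the detection p-values (offset 16), and quantile normalization and log2 followed (R 4.3.3, limma 3.58.1). Probes with a detection p below 0.05 on 4 or more arrays were kept (21116 of 48803). Names came from the platform annotation, in which 27578 probes have 1 symbol, 13 several and 21212 none. The probe with the highest mean represented a gene, which gave 12195 genes. All 36 arrays entered 1 limma fit with a mean for each group (27 residual degrees of freedom). P-values were adjusted by Benjamini-Hochberg over all genes within each of 22 planned and 4 added comparisons, with a threshold of 0.05 and 95% intervals. Passed and called mean an adjusted p under 0.05. Where a gene was above background on fewer than 4 arrays of the dimmer group, its fold is a lower bound, with each dim array set to the higher of its lowest signal above background and the gene's signal. The fit was also run on simulated data with independent noise for each gene and array. Such data lack the shared direction of spread seen in these arrays, so that run does not bear on errors arising from it.

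Groups came from the sample labels, and 0 columns belonged to other samples. The number of arrays limits the precision. Median intensity per array was 121.6 to 247.5. Members and lists were chosen with earlier results of these data known. Named genes are the 3 members, up to 4 list genes past the threshold per direction, and the 5 genes per member with the closest group means, among genes above background on all arrays whose group means span at least 0.5. The chromosomal neighbours and the ETS genes given with values were named after their values were seen. Alternatives in normalization, filter, probe choice, blocks, arrays left out and the processed table are given in the closing section.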

Additional observations from a re-analysis of the deposited data

Results flagged for a closer look

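On the tested ELF5 probe ILMN_1813270, MPA replicate 1 stood at 6.53, far from the other 3 MPA arrays at 6.07 to 6.09. On the ELF5 probe ILMN_1684699, E2+MPA replicate 4 stood at 5.78 with the other 3 at 5.25 to 5.32, and none of the 4 was above background. Each of these gaps exceeded Dixon's 95% critical value for 4 samples, as a share of the group's range. Of 36 groups of 4 examined, chance alone flags about 1 in 20.

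The interaction of E2 and PROG for EHF was 1.45. E2 gave EHF a difference of 0.20 in cells given PROG, against -1.25 in cells without it. The labels give no E2 dose for E2+PROG, so an interaction and an effect of another E2 dose cannot be told apart. On the ELF5 probe left out of the tests, E2s+PROG replicate 4 was above background at 6.00, while the 4 Vehicle arrays were not. No explanation was tested for any of these.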

How the results depend on the processing

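No alternative reversed a difference that had passed. Across the 8 main comparisons of the 3 genes, 539 alternative values kept their side of the threshold, 9 moved past it and 14 fell short of it. In the remaining comparisons 1270 kept their side, 33 moved past it and 23 fell short of it. EHF in E2 against Vehicle held in 20 of 24 alternatives, and EHF in E2+DHT against E2 in 22 of 24. It held in E2+MPA against E2 in 23 of 24 and in E2+PROG against E2 in 19 of 24, and ELF3 in E2 against Vehicle in 22 of 24. EHF and ELF3 have 1 probe each, above background on all arrays. Alternatives in filter and probe choice therefore could not change their differences, only the p-values, yet they are included in all these counts. Fitting the groups compared alone, with fewer arrays to estimate the spread, gave EHF -1.25 (adjusted p = 0.292) in E2 against Vehicle, 1.46 (0.0734) in E2+DHT and 1.14 (0.0681) in E2+PROG against E2, and ELF3 -0.68 (0.165) in E2 against Vehicle. Within the run, with 1 to 3 arrays a group, EHF was -0.44 in E2 against Vehicle, 1.22 (0.586) in E2+DHT and 1.02 (0.133) in E2+PROG against E2, and ELF3 was -0.64 (adjusted p = 1.00) in E2 against Vehicle. Outside the run, EHF was 1.53 (0.0573) in E2+MPA and 1.26 (0.136) in E2+PROG against E2. ELF3 passed in E2+MPA against E2 at 0.43 with the run as a block (0.0169), with blocks of 12 columns (0.0200) and with the run as a block without Vehicle replicate 1 (0.00652, chosen after seeing the data). ELF3 passed in E2+PROG against E2 at 0.40 with the run as a block (0.0304), likewise without Vehicle replicate 1 (0.0118) and with the authors' processed values (0.0318), and at 0.39 with blocks of 12 columns (0.0397). Leaving out 1 array at a time gave EHF -1.44 to -1.01 in E2 against Vehicle and 0.91 to 1.29 in E2+PROG against E2, and ELF3 0.28 to 0.56 in E2+MPA against E2, which passed without E2+MPA replicate 1 (0.0375) and replicate 2 (0.0258). The cause of these changes was not tested.

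Deviations of same-numbered arrays correlated at a median of 0.03, with 81 of 144 pairs under 0.1, beside a median of -0.03 for different-numbered arrays. These correlations run over all genes, and 1 direction held 49.4% of the residual variance. They cannot exclude a weaker pairing by replicate number. With a replicate block, EHF in E2 against Vehicle had adjusted p = 0.0120 and difference -1.25, ELF3 had 0.00468, and the EHF interaction of E2 and PROG was lost (0.0666). No slide or scan is named in the headers, so the slide block was not run. MPA and PROG have no array in the run. ELF5 near background has no value under the filter that needs all arrays above background, and passed in 0 of 612 alternatives by limma over all 26 comparisons.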
